A study of Canis lupus familiaris with 39 samples.

Results

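Normal canine heart was compared directly with normal canine kidney. The comparison used the 8 arrays labelled as these organs, 4 of heart and 4 of kidney, of 39 arrays in all, and every one of the 42860 probesets on the array. A probeset is a group of short probes that together measure 1 transcript. The heart is a pump whose working cells, the cardiomyocytes, contract through sarcomeres and burn mainly fatty acids in densely packed mitochondria. The kidney filters blood in glomeruli and reclaims salts, sugars and amino acids along the tubule, work that the sodium pump drives and that mitochondria also pay for. The tubule, mostly its proximal part, also makes glucose and breaks down amino acids, and the question here was how far organs that are both rich in mitochondria differ in the genes of each of these functions.

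The organs came from 4 dogs, 2 males and 2 females, of which 2 were beagles and 2 of mixed breed, aged between 3 months and 6 years, and 10 organs judged normal by pathology were taken from each dog. The labels name no treatment and no genotype. RNA of whole organ pieces was reverse transcribed and made into complementary RNA, which was hybridized, 1 sample to an array. The part of the heart or kidney that was sampled is not given in the sources used here. Values are log2 intensities after quantile normalization over all arrays, so a difference of 1 is a 2-fold change. Most probesets have values near 4, and a mean under 5 is called dim here.

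The labels fit the markers. TNNI3, the inhibitory troponin subunit of heart muscle, stood at 13.20, 12.93, 13.16 and 13.20 on heart arrays 1 to 4 and at 3.60, 3.65, 3.61 and 3.45 on the kidney arrays. UMOD, which encodes uromodulin of the thick ascending limb, stood at 13.72, 13.49, 13.15 and 13.40 on kidney arrays 1 to 4 and at 7.29, 3.76, 3.76 and 4.02 on the heart arrays. The groups did not overlap in either gene, and heart 1 stood well above the other hearts in UMOD. All 8 measured markers of cardiomyocytes were higher in heart, 8 of 9 measured markers of kidney epithelium were higher in kidney, and all 8 genes of fast skeletal muscle had means under 5 in both organs.

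Arrays of 1 organ correlated with Pearson's r between 0.955 and 0.985, and heart with kidney arrays with r between 0.789 and 0.825. Heart 1 carried more of the kidney signal than the other hearts. Among the 76 probesets that were over 100-fold higher in kidney, it was the highest of the 4 hearts in 55, and the median of these probesets on hearts 1 to 4 was 3.89, 3.60, 3.44 and 3.61. The reverse held more weakly for kidney 1, which was the highest kidney in 48 of 80 probesets over 100-fold higher in heart. UMOD was also raised on spleen 1, at 6.85, against a highest value of 5.70 on all other arrays outside kidney and heart 1. The source of this signal was not tested. Without heart 1, 2556 probesets were called higher in kidney and UMOD differed by -9.60.

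The overall comparison split more toward kidney. A probeset is called where limma's adjusted p for heart minus kidney lies below 0.001. By this rule 5070 probesets were called, 11.8% of all, of which 2175 were higher in heart (5.07%) and 2895 in kidney (6.75%). Over 10-fold differences were called in 497 probesets higher in heart (1.16%) and 693 higher in kidney (1.62%), and over 100-fold differences in 80 and 76. Of all calls, 686 (13.5%) were under 2-fold. Among the 45 pairs of tissues in the series, heart with kidney ranked 34th by the number of calls and 18th by calls over 10-fold. P-values here cover only the spread between samples. For each probeset, limma estimated that spread within the 10 tissues, over all 39 arrays. It can differ from the spread of the 8 heart and kidney arrays, whose small number limits the precision. The split depends on the scaling. When the arrays were shifted so that 12 housekeeping genes had 1 common median, the median difference over all probesets moved from 0.04 to 0.96, and 82.7% of 6469 calls were higher in heart, against 42.9% as deposited. EEF1A1 (-1.78) and GUSB (-2.59), housekeeping genes of translation and the lysosome, were themselves called lower in heart by limma, 1 of them no longer when heart 4 was left out, and all differences below are given relative to the quantile scale. A further alternative normalized the 8 arrays again and fitted them alone (3401 calls). The 8 arrays fitted alone without new normalization gave 3348 calls. Counts below after renormalization of the 8 arrays therefore reflect the smaller fit as well as the scaling.

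**Figure D1:**
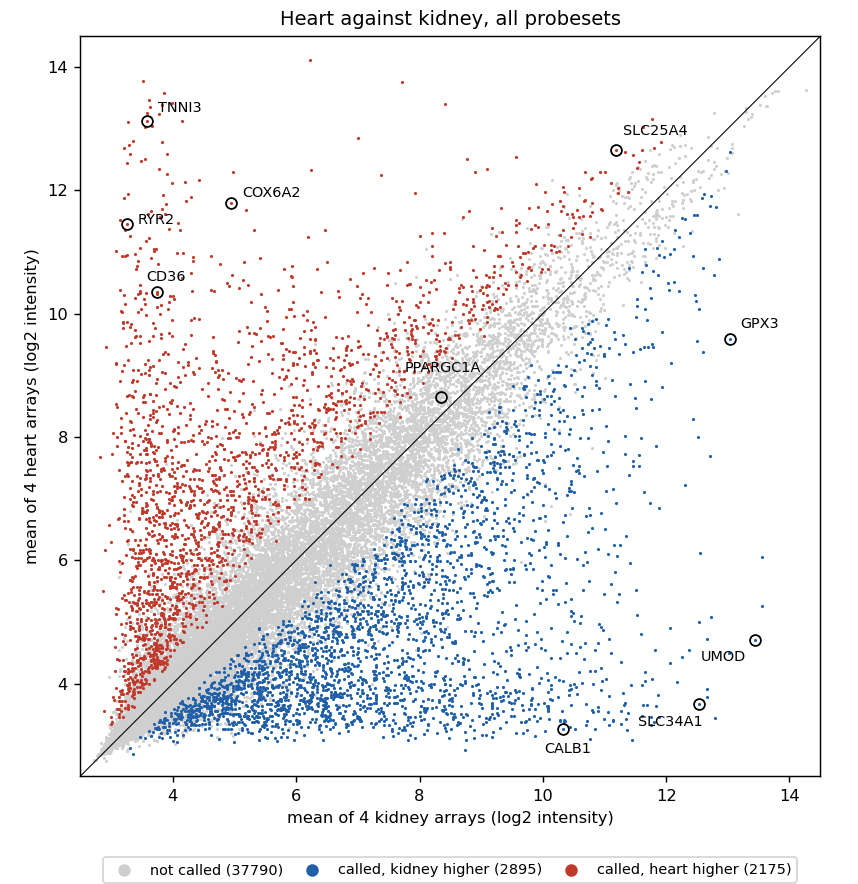
Mean log2 intensity of the 4 heart arrays (y axis) against the 4 kidney arrays (x axis), 1 point per probeset, with the line of equality. The 2175 probesets called higher in heart are red, the 2895 called higher in kidney are blue, the others grey, and 10 named genes are ringed. TNNI3 and RYR2 lie at the upper left, UMOD and SLC34A1 at the lower right, and PPARGC1A on the line.

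For the gene lists below, each gene is represented by its brightest probeset, judged by the mean of the 39 arrays. Of 15115 genes measured in this way, 5.41% were called higher in heart and 8.34% higher in kidney (13.7% in all), with a median difference of 0.03. Over 10-fold differences made up 1.21% and 1.96% of genes. Many of these genes were dim in both organs. Among the 6459 with a mean of at least 5 in heart or kidney, 11.4% were called higher in heart and 17.7% in kidney, 29.2% in all. In whole organs, fewer cells of a type and less RNA per cell cannot be told apart.

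The contractile apparatus had the largest median difference of the functional lists. Of 30 measured sarcomere genes, 27 were higher in heart, 25 of them over 10-fold, and the median difference was 7.49. MYL2, the regulatory myosin light chain of ventricle and slow muscle, stood at 13.67, 13.48, 13.25 and 13.48 in heart and at 3.68, 3.58, 3.75 and 3.41 in kidney. The heart arrays lay far above the kidney arrays, with a difference of 9.87 (95% confidence interval 9.05 to 10.68, limma's adjusted p = 1.11e-19), a 933-fold ratio of measured intensities. Where the lower organ lies near the floor, as here, such a ratio may understate the difference. The next in size were the troponins TNNC1 (9.72) and TNNT2 (9.71), the slow and cardiac myosin heavy chain MYH7 (9.57) and TNNI3 (9.54). ACTC1, cardiac actin, differed by 9.45, and the giant spring protein TTN by 8.37. The 12 largest differences in favour of heart also held the oxygen store myoglobin (MB, 9.48), the Z-disc protein MYOZ2 (9.47), the muscle ankyrin repeat protein ANKRD1 (9.46), the light chain MYL3 (8.98) and the muscle LIM protein CSRP3 (8.96).

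Skeletal muscle shared most of this signal but not all. It was the highest of the 8 other tissues for MYL2 (mean 13.08), MYH7 (12.52), TNNC1 (12.92) and MB (12.37), which are also genes of slow or oxidative fibres. It held little TNNT2 (4.82), the cardiac troponin T, or TNNI3 (6.08). The lone sarcomere gene called higher in kidney was TPM1, a tropomyosin also made outside muscle, at 8.66 against 11.17. Another probeset of TPM1 ran the other way, at 13.40 ± 0.08 in heart and 8.42 ± 0.71 in kidney (SD, n = 4 each). The direction of TPM1 therefore depends on the probeset.

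**Figure D2:**
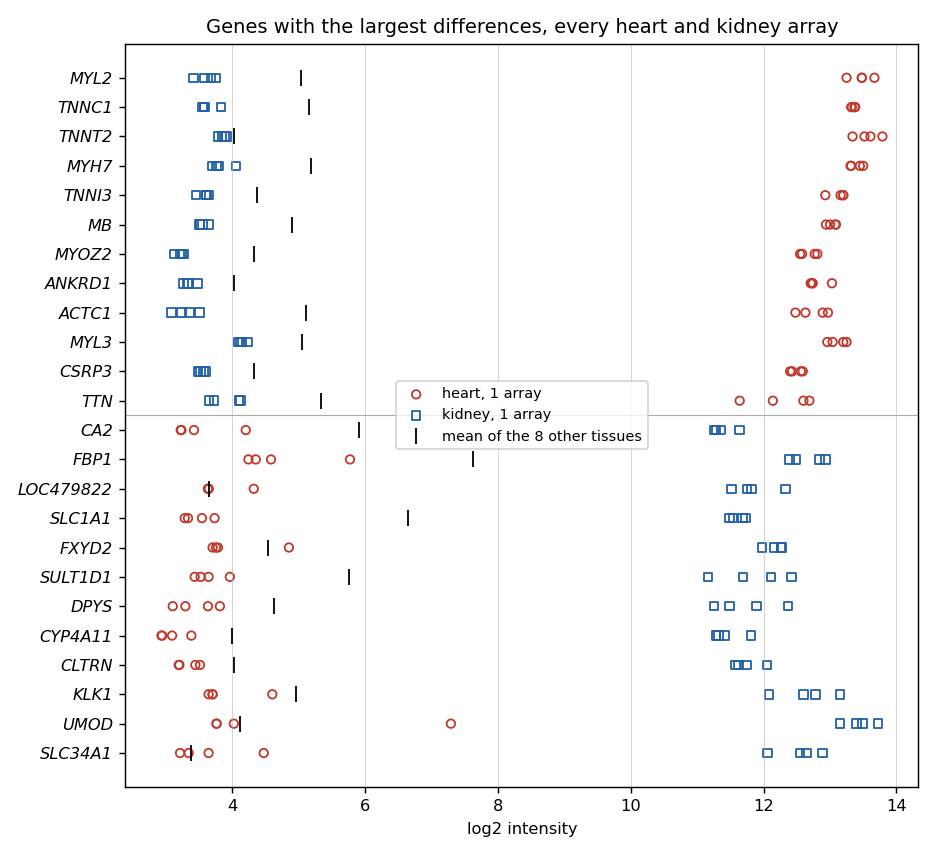
Log2 intensity (x axis) of the 12 genes with the largest differences in each direction, with every heart array as a red circle, every kidney array as a blue square and the mean of the 8 other tissues as a black tick. No gene shows overlap between the organs, and heart 1 stands apart from the other hearts at 7.29 in UMOD.

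Calcium handling followed the sarcomere at smaller size. Of 16 measured genes of the sarcoplasmic reticulum and calcium cycle, 11 were higher in heart and none in kidney, with a median difference of 2.89. RYR2, the release channel of the cardiac reticulum, stood at 11.61, 11.42, 11.58 and 11.19 in heart and between 3.15 and 3.44 in kidney. The difference was 8.19, or 292-fold. PLN, the brake on the calcium pump, differed by 7.76, the calcium-binding HRC by 6.70 and the pump itself, ATP2A2, by 5.85. The pump is the exception to an absent kidney signal, since ATP2A2 is also the general pump of the endoplasmic reticulum and stood at 7.0 in kidney. CACNA1C, the pore of the L-type channel, was dim in both organs, at 3.55 and 3.38.

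Junctions and electrical genes were less evenly captured. In the intercalated disc, which couples cardiomyocytes end to end, 6 of 9 genes were higher in heart. They were led by NRAP (7.36), PKP2 (4.12) and DSP (3.65), an actin anchor and 2 desmosome proteins. Of 17 measured ion channel and connexin genes, 4 were higher in heart, and 13 had means under 5 in both organs. GJA1, the main ventricular connexin, stood at 7.13, 6.56, 6.91 and 6.54 in heart and at 4.73, 4.40, 4.71 and 4.39 in kidney. ABCC9, a regulatory subunit of potassium channels, differed by 3.04, and KCNIP2, a potassium channel partner, by 1.67. Other probesets of KCNIP2 differed by 5.48 and 3.55, and another of GJA1 by 3.80. Another of ABCC9 differed by 0.75 and was not called (limma's adjusted p = 0.066). After renormalization of the 8 arrays 2 of the 17 channel genes were called.

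Of 20 measured cardiac regulators and peptides, 16 were higher in heart and none in kidney, with a median difference of 2.04. After renormalization of the 8 arrays 9 were called. The 16 called on the deposited values included the transcription factors HAND2 (8.35 against 4.27), NKX2-5 (7.13 against 4.71), GATA6 (6.01 against 3.83) and MEF2A (7.58 against 5.24). SMYD1, a muscle methyltransferase, differed by 5.39, and CORIN, the protease that activates natriuretic peptide, by 5.02. GATA4 reached 4.27 in heart and 3.69 in kidney, a called difference near the floor of the array. TBX5 and TBX20 were not called and had means under 5 in both organs.

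Markers of atrial myocytes did not move together. Of 5 measured, MYL7 was called higher in heart (7.89) and NR2F1, a transcription factor also expressed in brain, higher in kidney (-5.47), and the list's median on hearts 1 to 4 was 7.74, 5.89, 5.25 and 6.37. MYL4, the atrial essential light chain, stood at 9.73, 10.32, 5.25 and 6.37 on hearts 1 to 4 and between 5.03 and 5.72 on the kidney arrays. Hearts 1 and 2 were high, and heart 3 fell inside the range of kidney, so that MYL4 was not called (difference 2.51, adjusted p = 0.00174). NPPB, a natriuretic peptide gene, was high in the same pair of hearts, at 7.67, 8.15, 4.91 and 5.47, and between 4.59 and 4.93 in kidney. It was called higher in heart (adjusted p = 5.73e-04), although heart 3 fell inside the range of kidney. MYL7, the atrial regulatory light chain, did not follow them, at 11.22, 12.37, 11.41 and 12.11. The ventricular MYL2, MYL3 and MYH7 varied by an SD of at most 0.17 between hearts. NPPB was named after its values were seen, and the part of the sampled chamber in these values was not tested.

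In the kidney direction, the proximal tubule gave the largest group. Of 37 measured genes of this segment, 28 were higher in kidney, 21 of them over 10-fold, none was higher in heart, and the median difference was -4.25. SLC34A1, the sodium phosphate transporter of the brush border, stood at 12.89, 12.06, 12.65 and 12.55 in kidney and at 4.47, 3.34, 3.21 and 3.64 in heart. The difference of -8.87 is 469-fold, and heart 1 was again the highest heart. CLTRN, the amino acid transporter chaperone, differed by -8.41 and the brush border peptidase DPP4 by -7.83. The receptors that take up filtered protein, LRP2 (-7.38) and CUBN (-7.28), differed about as much. Several known transporters of this segment were dim in both organs, among them the glucose transporter SLC5A2 at 4.30 in kidney and the sodium proton exchanger SLC9A3 at 3.51. The glucose exit transporter SLC2A2 stood at 6.02 against 3.19 and was not called (adjusted p = 0.00117), although all kidney arrays lay above all heart arrays.

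The next segments were represented by fewer genes. In the thick ascending limb 6 of 9 genes were higher in kidney, with UMOD at a difference of -8.74, SLC12A1, the furosemide-sensitive salt transporter, at -4.39 and CLDN10, a paracellular claudin, at -1.82. The count fell to 2 under the housekeeping shift and to 4 after renormalization of the 8 arrays. CLDN10 was not absent from heart, with 8.04 on average there. Of 13 genes of the distal convoluted and connecting tubule, 5 were called higher in kidney and 8 were dim in both organs, so that the list's median of -0.07 lies near 0 and turned to 0.86 under the housekeeping shift. The called genes included KLK1 (tissue kallikrein, -8.74), FXYD2 (a subunit of the sodium pump, -8.15) and CALB1 (a calcium buffer, -7.06). KLK1 was as bright in pancreas (12.81) as in kidney (12.66).

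In the collecting duct 14 of 20 genes were higher in kidney, with a median of -2.20, and 9 under the housekeeping shift. CA2, carbonic anhydrase, stood at 11.26, 11.28, 11.64 and 11.36 in kidney and between 3.22 and 4.20 in heart. HSD11B2, which protects the aldosterone receptor from cortisol, differed by -5.31, and RHBG, an ammonium transporter, by -4.81. RHBG also varied between kidneys, at 8.57, 6.11, 9.45 and 9.40, with kidney 2 lowest. AQP2, the vasopressin-regulated water channel, had a smaller but narrow difference of -2.03, from 3.66 ± 0.07 in heart to 5.70 ± 0.24 in kidney (SD, n = 4 each).

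The glomerulus was nearly invisible on this array. Of 16 measured podocyte genes, 15 had means under 5 in both organs, and 2 were called higher in kidney. COL4A3, a chain of the glomerular basement membrane, stood at 6.04, 7.27, 6.53 and 8.35 in kidney and between 3.21 and 3.52 in heart. NPHS1, the slit diaphragm protein nephrin, differed by -0.64 with kidney at 4.0, and turned to 0.29 under the housekeeping shift. Its call was lost without heart 3 (-0.63), heart 4 (-0.61) or kidney 4 (-0.48).

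Transcription factors of the kidney had a small median difference, and 9 of the 16 measured had means under 5 in both organs. Of 16 measured, 6 were higher in kidney, with a median of -0.68 that turned to 0.25 under the housekeeping shift, which left 2 calls (4 after renormalization of the 8 arrays). TFCP2L1 of the distal nephron and collecting duct (-3.30), TFAP2B of the distal tubule (-2.79) and HNF4G (-2.41) were the largest. PAX8, a factor of all tubule segments, stood at 4.22, 4.73, 4.67 and 5.38 in kidney and between 3.91 and 4.05 in heart, a difference of -0.75 near the floor that turned to 0.18 under that shift. Of 25 genes of epithelial adhesion and identity, 13 were higher in kidney and none in heart, against 7 and 1 under the housekeeping shift. EPCAM (-7.33), CLDN8 (-4.36) and the keratin KRT18 (-4.35) were the largest. The kidney cadherin CDH16 was not called from the probeset chosen by the rule (5.80 in heart, 5.20 in kidney), but its other probesets stood at 8.99 and 8.01 in kidney against 3.67 and 3.54 in heart. Of 9 measured renal endocrine genes, DIO1 (thyroxine deiodinase, -7.29), PTH1R (the parathyroid hormone receptor, -5.14) and ACE (-1.87) were higher in kidney, while EPO and VDR were dim in both organs and the list's median of -0.41 turned to 0.52 under that shift.

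**Figure D3:**
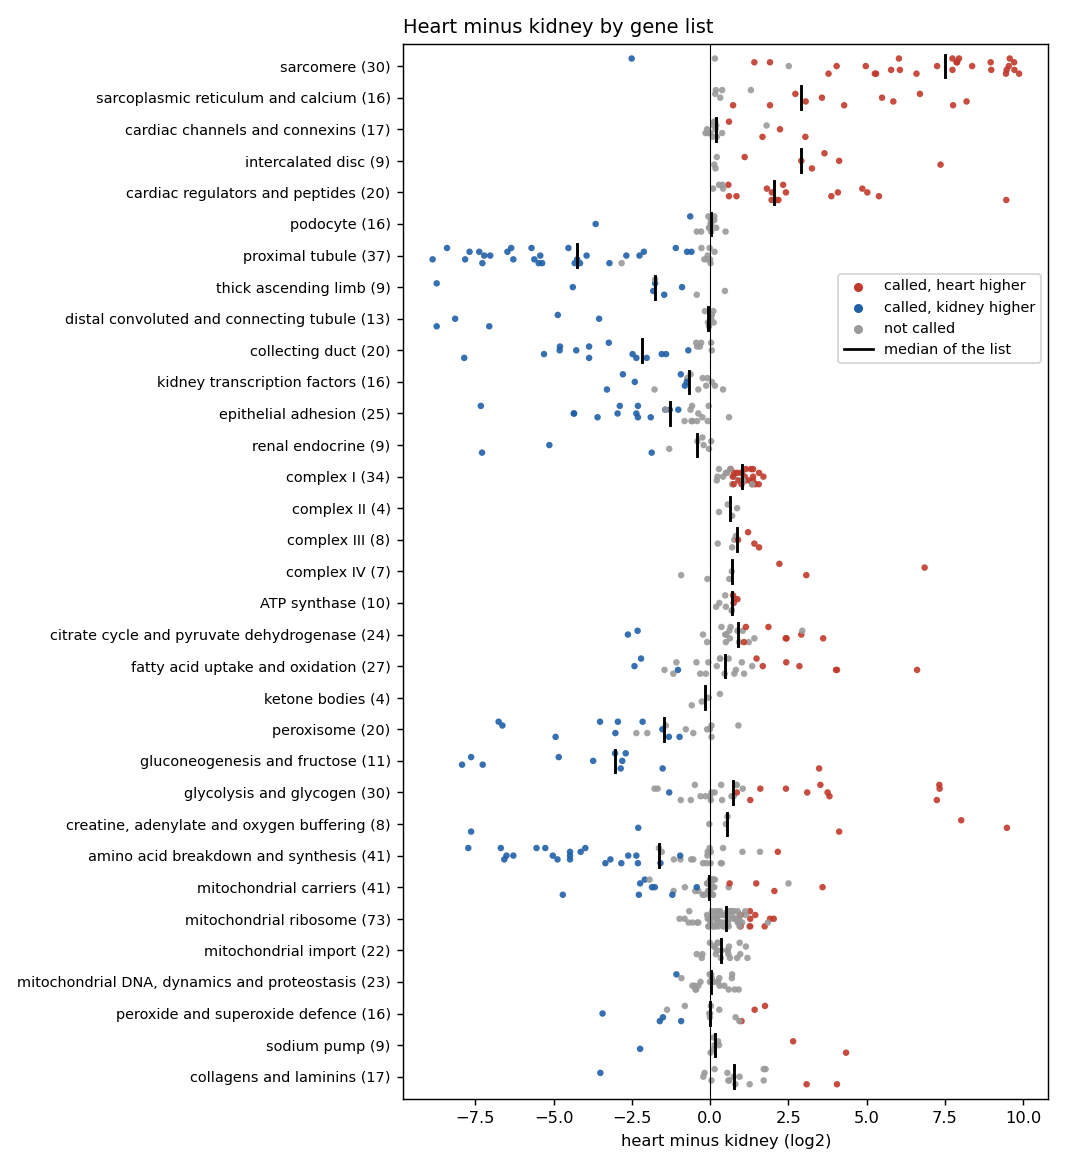
Heart minus kidney on the log2 scale (x axis) for every measured gene of 33 lists (y axis, number of genes in parentheses), red where called higher in heart, blue where called higher in kidney, grey where not called, with the median of each list as a black bar. Sarcomere genes lie far to the right (median 7.49), proximal tubule genes to the left (-4.25), and complex I genes in a narrow band right of 0 (0.21 to 1.70). A shift to equal housekeeping genes moves every point to the right by about the same amount, with a median over all probesets of 0.96.

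Complex I of the mitochondrial respiratory chain was higher in heart by a modest and even amount. Every one of 34 measured nuclear genes of complex I, the NADH dehydrogenase, had a positive difference, between 0.21 and 1.70, with a median of 1.0, and 23 were called. NDUFA5 stood at 11.31, 11.0, 11.32 and 10.84 in heart and at 9.31, 9.46, 9.55 and 9.34 in kidney. The organs did not overlap, and the difference was 1.70 (adjusted p = 2.13e-08). Differences of 1.56 and 1.55 followed in NDUFV3 and NDUFS3. The count depends on the arrays more than the differences do, since leaving out heart 1, heart 4 or kidney 3 left 14 calls and leaving out heart 3 left 15, with medians between 0.95 and 1.03 over these alternatives.

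The other complexes ran in the same direction with fewer calls. Complex III, the cytochrome bc1 complex, had 4 of 8 genes called and a median of 0.86, led by cytochrome c1 (CYC1, 1.56) and UQCR10 (1.41). ATP synthase had 3 of 10 called and a median of 0.69, with ATP5MC3 at 0.87, ATP5MC2 at 0.75 and ATP5PO at 0.73. The call of ATP5MC3 was lost without heart 1 (0.83) or kidney 3 (0.81). Under the housekeeping shift 7 genes of complex III, 8 of ATP synthase and 5 of complex IV were called higher in heart. None of the 4 genes of complex II, succinate dehydrogenase, was called by limma, with differences between 0.28 and 0.86, and 2 had an unadjusted p under 0.05. SDHA, for example, differed by 0.70 (95% confidence interval 0.25 to 1.15, adjusted p = 0.019).

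By the median of complex I, both organs stood above the mean of the 8 other tissues, though skeletal muscle stood above kidney. Against the mean of the 8 other tissues, 33 of 34 complex I genes were called higher in heart and 18 in kidney, with medians of 1.75 and 0.69, where 8.34% of all genes were called higher in heart and 9.01% in kidney. These comparisons share the arrays of the 8 other tissues. The median over the complex I list on each array ran from 11.21 to 11.34 in heart, from 10.95 to 11.29 in skeletal muscle and from 10.34 to 10.48 in kidney. Heart ranked 1st, skeletal muscle 2nd and kidney 3rd of 10 tissues by the mean, and heart and skeletal muscle overlapped while heart and kidney did not. The same order held for ATP synthase, where kidney ran from 11.88 to 12.22 and heart from 12.59 to 12.76.

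**Figure D4:**
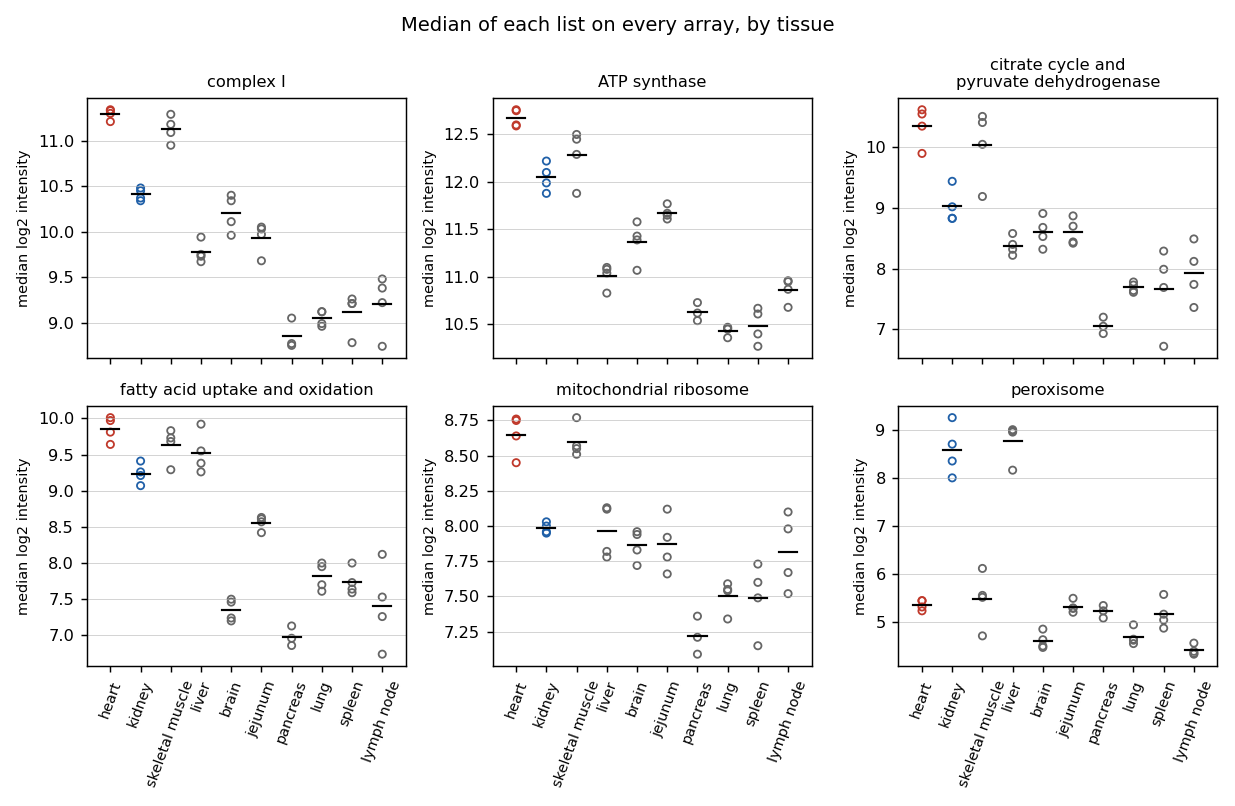
Median log2 intensity of 6 gene lists (y axis, a separate scale per panel) on every array of the 10 tissues (x axis), with 1 circle per array and the tissue mean as a bar, heart in red and kidney in blue. By the mean of the arrays, heart is highest in complex I, ATP synthase, the citrate cycle and the mitochondrial ribosome, and kidney lies with liver in the peroxisome panel.

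Complex IV, cytochrome c oxidase, had 3 of 7 measured genes higher in heart, all of them muscle or tissue-specific forms of a subunit, with a median of 0.69. COX6A2, the muscle form of subunit 6A, stood at 12.05, 11.56, 12.02 and 11.57 in heart and at 4.97, 4.82, 5.10 and 4.92 in kidney. The difference was 6.85, or 115-fold. COX4I2, a tissue-specific form of subunit 4, differed by 3.07, and COX7A1, the muscle form of subunit 7A, by 2.21, but COX7A1 stood at 9.89 in kidney and so was not restricted to heart. The general COX4I1 differed by 0.61 (95% confidence interval 0.25 to 0.97) and COX8A by -0.93 (adjusted p = 0.00126), neither called. Another probeset of COX8A was called higher in kidney (-0.91, adjusted p = 5.77e-04). The general COX6A1 and COX7A2 were not measured by a probeset with 1 symbol, so the full switch could not be followed.

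The adenine nucleotide carriers, which pass ATP out of the mitochondrion, ran in opposite directions. SLC25A4, the heart and muscle form, stood at 12.77, 12.44, 12.50 and 12.91 in heart and at 11.05, 11.50, 11.10 and 11.09 in kidney. SLC25A5 stood at 9.63, 10.17, 9.66 and 9.32 in heart and at 11.66, 12.06, 11.84 and 12.19 in kidney. SLC25A6 differed by -2.28 and SLC25A5 by -2.24, whereas SLC25A4 differed by 1.47, all 3 called. Another probeset of SLC25A4 differed by 3.24. Under the housekeeping shift the difference of SLC25A5 kept its sign but was no longer called. Over all 41 measured mitochondrial carriers, 4 were higher in heart and 8 in kidney. Under that shift the counts turned to 6 and 2, and the median of -0.03 to 0.89. SLC25A12, the aspartate glutamate carrier of the malate shuttle, was higher in heart (3.59) as was the oxoglutarate carrier SLC25A11 (2.05), and SLC25A1, the citrate carrier that feeds fat synthesis, was higher in kidney (-4.71).

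**Figure D5:**
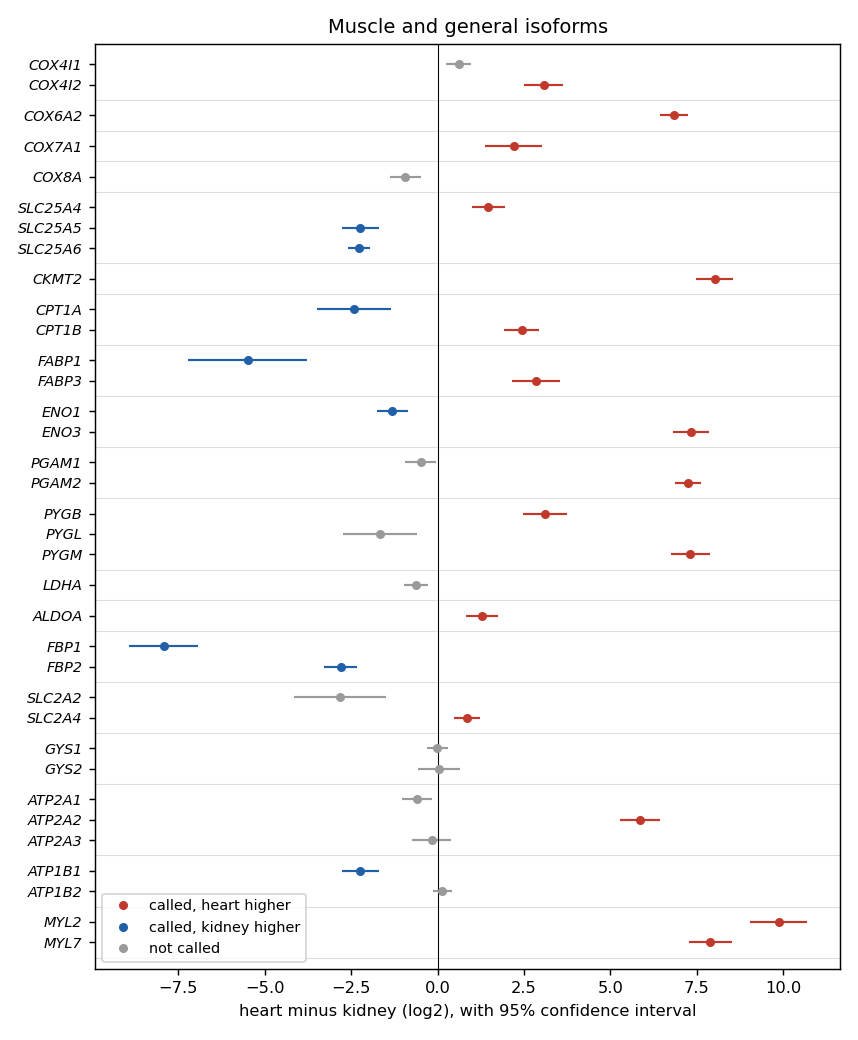
Heart minus kidney on the log2 scale (x axis) with limma's 95% confidence interval for 35 genes of muscle and general isoform sets (y axis), separated by lines between sets, red where called higher in heart, blue where called higher in kidney and grey where not called. SLC25A4, CPT1B, FABP3 and ENO3 lie right of 0 while SLC25A5, CPT1A, FABP1 and ENO1 lie left of it. Not every set splits in this way, since FBP1 and FBP2 both lie left of 0 and GYS1 (-0.01) is not called. Under the housekeeping shift SLC25A5, CPT1A and ENO1 stay left of 0 but are no longer called.

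The citrate cycle with pyruvate dehydrogenase had 7 of 24 genes higher in heart and 2 in kidney, with a median of 0.89. PDK2, a kinase that shuts pyruvate dehydrogenase, differed by 3.61, the isocitrate dehydrogenase subunit IDH3B by 2.91 and the pyruvate dehydrogenase subunit DLAT by 2.44. The call of DLAT was lost when any array but kidney 4 was left out, with differences between 2.18 and 2.57. IDH3B had a further probeset with a called difference of -1.90. Leaving out heart 1, heart 3 or kidney 3 moved the count of 7 by over 1.5 times, down to as few as 4, and the housekeeping shift raised it to 16. The genes higher in kidney were PDK3, another kinase of pyruvate dehydrogenase (-2.63), and SUCLG2, the subunit that makes succinyl-CoA ligase use GDP (-2.32). SUCLG2 stood at 9.56, 9.92, 9.87 and 8.46 in heart and between 11.70 and 11.88 in kidney. PDK4, induced by fasting, was the most variable, between 9.82 and 12.31 in heart and between 6.50 and 11.14 in kidney, and was not called.

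Genes of fatty acid use went in both directions. CD36, the fatty acid translocase, stood at 9.95, 11.35, 10.58 and 9.51 in heart and between 3.51 and 3.91 in kidney. LPL, the lipase that frees fatty acids at the vessel wall, differed by 4.02, the cytosolic carrier FABP3 by 2.85, and the uncoupling protein UCP3 by 4.05. UCP3 varied widely between hearts, at 5.76, 7.04, 9.14 and 9.87, and still lay above the highest kidney at 4.01. For entry into mitochondria, CPT1B, the muscle form of the carnitine acyltransferase, differed by 2.43 and CPT1A, the liver form, by -2.42. Another probeset of CPT1B differed by 4.52, so these sizes depend on the probeset. CPT1A stood at 4.91, 7.86, 7.09 and 6.0 in heart and overlapped nowhere with kidney (7.97 to 9.46), but the call was lost without heart 1 (-1.90), heart 4 (-2.26), kidney 2 (-2.36), kidney 3 (-2.36) or kidney 4 (-2.23).

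Over the 27 measured genes of fatty acid uptake and oxidation 7 were higher in heart and 3 in kidney, with a median of 0.46. The counts depend on the scaling, with 15 higher in heart and 0 in kidney under the housekeeping shift. They were 5 and 0 after renormalization of the 8 arrays, which were also fitted alone. The medium-chain dehydrogenase ACADM (11.69 against 11.48) and HADHA of the trifunctional protein for long chains (10.97 against 10.66) were not called, and the very-long-chain enzyme ACADVL was higher in heart (11.40 against 9.92). ECHS1, the enoyl-CoA hydratase (-1.03), and the carnitine transporter SLC22A5 (-2.21) were higher in kidney. The call of ECHS1 was lost when any array but heart 1 and kidney 2 was left out, with differences between -1.05 and -0.89, and without heart 4, kidney 3 or kidney 4 the count higher in kidney fell from 3 to as few as 1. None of the 4 genes of ketone body use was called by limma, 0 had an unadjusted p under 0.05, and their median of -0.16 turned to 0.77 under the housekeeping shift.

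Peroxisomes divided the organs in the kidney direction. Of 20 measured genes 10 were higher in kidney and none in heart, with a median of -1.48. The count fell to 5 under the housekeeping shift, with a median of -0.55, and to 5 after renormalization of the 8 arrays. HAO2, an oxidase of hydroxy acids, stood at 10.43, 10.25, 9.92 and 10.62 in kidney and between 3.41 and 3.69 in heart. PIPOX, which degrades pipecolic acid, differed by -6.64 and DAO, the D-amino acid oxidase, by -4.94. By the list's median, kidney (mean 8.57) lay next to liver (8.77), and heart (5.37) ranked 4th. The 4 kidneys ran from 8.0 to 9.25.

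The called genes that make glucose and those that break it down differed mostly in opposite directions. Of 11 measured genes of gluconeogenesis and fructose use, 10 were higher in kidney and 1 in heart, with a median of -3.04. FBP1, fructose bisphosphatase, stood at 12.93, 12.49, 12.39 and 12.84 in kidney and at 5.77, 4.35, 4.24 and 4.58 in heart. Both probesets of FBP2, the other fructose bisphosphatase, were also called higher in kidney (-2.81 and -2.76). G6PC1, which releases free glucose, differed by -7.64. PCK1, the cytosolic carboxykinase, differed by -7.27 and varied between hearts at 5.90, 5.50, 3.23 and 3.55, with hearts 1 and 2 high. The gene higher in heart was AKR1B1, aldose reductase (3.48). By the list's median, liver (mean 9.04) ranked above kidney (8.88), and jejunum (7.19) came 3rd.

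Glycolysis and glycogen genes had 11 of 30 called higher in heart and 1 in kidney. The other 18 were not called, and the median of the list was 0.71. The muscle isoforms led, with the enolase ENO3 at 12.05, 12.36, 12.41 and 12.36 in heart and between 4.89 and 5.08 in kidney. The muscle glycogen phosphorylase PYGM differed by 7.32 and the muscle mutase PGAM2 by 7.24. Of their general partners, ENO1 was called at -1.31 and PGAM1 was not called at -0.49 (95% confidence interval -0.93 to -0.05, adjusted p = 0.12). ENO1 was the gene called higher in kidney, and it was not called under the housekeeping shift. Without heart 2, heart 3 or kidney 1 the count higher in kidney was up to 3. LDHA differed by -0.62 and ALDOA by 1.28, the latter called, and another probeset of ALDOA by 1.94.

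Of 8 measured genes of creatine, adenylate and oxygen buffering, 3 were higher in heart and 2 in kidney. CKMT2, mitochondrial creatine kinase of striated muscle, stood at 11.61 ± 0.28 in heart (SD, n = 4) and between 3.50 and 3.66 in kidney. GATM, which makes the creatine precursor, stood at 4.0, 3.52, 3.54 and 3.68 in heart and at 9.95, 11.28, 11.79 and 12.28 in kidney. The organs did not overlap in either gene. Of the adenylate kinases, which share a reaction, both were called, with AK1 at 4.12 and AK4 at -2.30. Under the housekeeping shift or after renormalization of the 8 arrays, 1 gene of the list was called higher in kidney.

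The called genes of amino acid metabolism were mostly higher in kidney than in heart. By the list's median, liver (mean 8.49) ranked above kidney (8.29), and heart stood at 4.93. Of 41 measured genes 22 were higher in kidney, 15 of them over 10-fold, and 1 in heart, with a median of -1.64. HPD, of tyrosine breakdown, differed by -7.73. Inositol oxygenase (MIOX), kept in this list for its renal pathway, differed by -6.69. BHMT, which remethylates homocysteine, stood at 11.17, 11.20, 9.43 and 10.34 in kidney and between 3.65 and 4.28 in heart. GPT, alanine aminotransferase, was higher in heart by 2.16 (adjusted p = 9.72e-04), a call that was lost when any array but heart 2 and kidney 4 was left out, with differences between 1.65 and 2.35. Of the enzymes of branched-chain breakdown, the subunits BCKDHA (8.76 and 8.35) and BCKDHB (8.64 and 8.88) lay close in the organs.

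Calls among genes that build mitochondria depended on the scaling. Of 73 measured genes of the mitochondrial ribosome 9 were higher in heart and none in kidney, with a median of 0.49, against 40 and a median of 1.42 under the housekeeping shift. MRPL48 (2.03), MRPL16 (1.91) and MRPL46 (1.74) were the largest. None of 22 import genes was called by limma (median 0.35), and 10 had an unadjusted p under 0.05. With the replicate number as a block, or with the 8 arrays normalized again and fitted alone, 1 import gene was called higher in heart, and 10 were under the housekeeping shift. Of 23 genes of mitochondrial DNA, dynamics and protein quality, the chaperonin HSPE1 was called higher in kidney (-1.08) and no other, whereas under the housekeeping shift 5 were called higher in heart and 0 in kidney. PPARGC1A, the coactivator that drives mitochondrial biogenesis, stood at 8.42, 9.05, 8.53 and 8.56 in heart and at 8.28, 8.42, 8.47 and 8.25 in kidney. The organs overlapped (difference 0.29, adjusted p = 0.833), and the mean of the 8 other tissues was 4.80. The standard error of this difference, 0.56, rests on the spread within all tissues. Between arrays of 1 organ the SD was 0.28 in heart and 0.10 in kidney.

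PPARGC1A belonged to 203 genes that were above the 8 other tissues in heart and in kidney and were not called between them, 1.34% of genes. Both comparisons use the same arrays of the 8 other tissues, so the size of this overlap is not a result. OXCT1, the enzyme that lets tissues burn ketone bodies, stood at 8.74 in heart and 8.79 in kidney against 5.61 in the 8 other tissues. RETREG1, a receptor for turnover of the endoplasmic reticulum, stood at 9.81 and 9.14 against 6.02. ANK3, which anchors membrane proteins, stood at 11.08 and 10.77 against 7.94, and BCAM, a laminin receptor, at 8.07 and 8.53 against 5.66. PHLDB2, a cortical protein, stood at 9.56 and 9.47 against 6.41 and the small GTPase ARL3 at 9.47 and 10.06 against 6.89. EGF, made in the thick ascending limb, stood at 8.49 in heart and 10.26 in kidney against 4.64, and pancreas was as high as kidney at 10.59. Another probeset of EGF was called higher in kidney (-2.0, limma's adjusted p = 9.91e-05), and another of ANK3 higher in heart (1.72), so these genes are shared only by the probeset chosen. A call that misses the threshold does not show equal levels, and the 95% confidence interval for EGF reached from -2.83 to -0.69, with all kidney arrays above all heart arrays.

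Antioxidant genes were split evenly, 3 of 16 higher in heart and 4 in kidney. Under the housekeeping shift the counts were 4 and 1, and the median of -0.01 turned to 0.92. The extracellular glutathione peroxidase GPX3 stood at 13.26, 12.79, 13.17 and 12.90 in kidney and at 10.17, 8.90, 10.13 and 9.14 in heart. SOD1, the cytosolic superoxide dismutase, differed by -1.61 and the cytosolic peroxidase GPX1 by -1.51. The call of GPX1 was lost without heart 1, heart 2, heart 3, kidney 3 or kidney 4, with differences between -1.49 and -1.38. The mitochondrial members NNT, a source of NADPH (1.75), PRDX5 (1.42) and GLRX2 (1.0) were the ones higher in heart, and the call of GLRX2 was lost without heart 1 (0.87) or kidney 4 (0.93). SOD2, the mitochondrial dismutase, stood at 9.98 and 9.99.

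Of 9 measured genes of the sodium pump list, 2 were higher in heart and 1 in kidney. ATP1B1, the common beta subunit, stood at 9.57, 9.73, 9.65 and 8.90 in heart and at 11.87, 11.80, 11.98 and 11.16 in kidney (difference -2.24, adjusted p = 3.60e-08). The regulators FXYD1, phospholemman of heart and muscle (4.34), and FXYD6 (2.65) were higher in heart. FXYD2, counted above with the distal tubule, was higher in kidney.

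Of 17 measured collagens and laminins, LAMA4 (4.05) and COL5A2 (3.08) were higher in heart and LAMA1 (-3.51) in kidney. The chains belong to the vessel wall, the fibrous matrix and epithelial basement membranes. The housekeeping shift gave 8 higher in heart and 1 in kidney. COL5A2 lost its call when any array but heart 3 and kidney 1 was left out, with differences between 2.73 and 3.15. Of 13 endothelial markers, 3 were higher in heart and 1 in kidney, against 1 and 0 after renormalization of the 8 arrays. VWF stood at 9.69 in heart and 5.31 in kidney, FABP4 at 8.48 and 3.10, and ESAM at 5.52 and 3.79, whereas EMCN stood at 7.25 and 9.09, a call lost without heart 3, heart 4, kidney 1, kidney 2 or kidney 4. PECAM1, shared by all endothelium, differed by -0.57 and was not called. Of these markers, VWF, FABP4 and ESAM, like LUM and SMTN below, were named after their values were seen. Among 8 fibroblast genes LUM was called, at 10.39 against 5.70, but not without heart 1, heart 2, kidney 2 or kidney 4, and among 6 smooth muscle genes SMTN, at 9.29 against 6.67. Of 9 macrophage genes none was called by limma, with differences between -0.48 and 1.16 and 1 unadjusted p under 0.05, and of the 9 genes of T cells and of B and plasma cells CD5 was called, at 3.98 in heart and 5.06 in kidney, a call lost when any 1 array was left out. Of the fibroblast genes, 3 were called higher in heart under the housekeeping shift and 0 after renormalization of the 8 arrays. None of the 12 immediate early and stress genes was called by limma, with differences between -1.25 and 1.30 and 3 unadjusted p-values under 0.05.

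The kidneys also differed among themselves. Of all genes with a mean of at least 5 in kidney, the SD between kidneys was largest for SLC27A2, a fatty acid transporter of the proximal tubule, at 7.42, 10.52, 10.80 and 3.27. CDO1, cysteine dioxygenase, stood at 7.80, 9.98, 10.32 and 3.72 and ENPP6 at 8.12, 9.24, 9.65 and 3.28, so kidney 4 was lowest in all 3. In other variable genes kidney 2 was lowest, as in FADS1, a fatty acid desaturase (9.32, 4.38, 10.27 and 4.53), CROT, UGT1A6, SMPDL3A and NNMT. Kidney 4 was the highest kidney in COL4A3 (8.35), CLDN8 (9.31), PAX8 (5.38) and HSD11B2 (9.98). SLC34A1 and UMOD varied by an SD of 0.35 and 0.23. The part of the sampled region of the kidney in this was not tested.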

How the data were processed

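The values analysed are log2 intensities as deposited. The authors made them with Partek software from Affymetrix Canine Version 2.0 arrays. Probe values were adjusted for GC content and sequence, background was corrected by RMA, arrays were quantile normalized, and probes were summarized by median polish. The table holds 39 arrays of 10 tissues, and no further scaling was applied here. A mean per tissue was fitted to all arrays with limma (version 3.58.1, R version 4.3.3), with the contrast heart minus kidney, the moderated variance and Benjamini-Hochberg adjustment over all 42860 probesets, called at a false discovery rate of 0.001. The same fit compared heart and kidney with the mean of the 8 other tissues. Symbols came from the array's probe table, with 29254 probesets of 1 symbol, 439 of several and 13167 of none, and 27680 of the first were matched to RefSeq by gene ID.

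Named genes were the 12 largest called differences in each direction, up to 3 called members of each list per direction, all isoform genes, all markers of cardiomyocytes and kidney epithelium, the 2 brightest markers of other cells and 8 shared genes. Members and lists were chosen with earlier results of these data known. Genes named outside this rule were chosen after their values were seen. Intensities near the floor compress differences. Genome positions are left out, since the RefSeq table used for names belongs to a different build. Scan date, a factor in the authors' model, is not in the labels. The fit was tested on simulated data. Alternatives changed the variance, the samples, the scaling, the filter on dim probesets, the threshold and the probeset of a gene, and left out each array in turn.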

Additional observations from a re-analysis of the deposited data

Results flagged for a closer look

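In 25 of 350 groups of 4 arrays (175 named genes in each organ), 1 array stood apart, with a gap to its neighbour that exceeded Dixon's 95% critical value. This is 7.14% of groups, and chance alone gives about 1 in 20.

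Heart 1 accounted for 7 of them. It was high in 5 genes that were higher in kidney than in heart, namely UMOD (7.29, the other hearts 3.76 to 4.02), FXYD2 (4.85), KLK1 (4.60), LOC479822 (4.32) and ACE (3.71), high in ANKRD1 (13.03) and low in ENO3 (12.05). Heart 4 was low in ANK3 (10.42), IDH3B (10.97) and AQP2 (3.56) and high in ATP2A2 (13.14) and GYS2 (3.40). Heart 2 was high in the laminins LAMA1 (6.73, the others 3.88 to 4.07) and LAMA4 (10.15) and low in TNNI3 (12.93). Heart 3 was high in DLAT (8.84) and low in SLC25A6 (9.87).

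Kidney 1 accounted for 5, being high in PHLDB2 (10.67), COX4I2 (4.97), SLC2A4 (4.12) and TNNC1 (3.83) and low in CLDN10 (9.66). Kidney 2 was high in SLC25A4 (11.50), kidney 3 in ATP2A1 (6.33), and kidney 4 was low in MIOX (10.73). The source of these deviations was not tested.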

How the results depend on the processing

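Of the 5070 calls, 2175 higher in heart and 2895 in kidney, leaving out 1 array left between 4391 and 4737, with 1824 to 2057 higher in heart and 2556 to 2853 in kidney. Fitted to the 8 arrays alone, the calls were 3348 (1437 and 1911). After a new quantile normalization of these 8 arrays, 1803 were higher in kidney. A false discovery rate of 0.05 gave 9256 calls (4250 and 5006). The shift to equal housekeeping genes gave 5349 calls higher in heart and 1120 in kidney, and 877 and 421 over 10-fold. Other settings stayed within 1.5 times each count, including the replicate number as a block (5423 calls, 1 of 175 named genes gained a call and none lost it). Arrays of the same number deviated together with r = 0.236, 0.18, 0.022 and 0.108, and 3 of 4 hearts correlated best with the kidney of their number. The organs came from the same 4 dogs, which points toward pairs, but the labels do not tie the numbers to dogs and 1 pair showed little correlation, so the fit without the block was kept. Among the 175 named genes, 19 lost their call when fitted to the 8 arrays alone, 20 after these were normalized again and 16 under the housekeeping shift. NPHS1 (0.29) and PAX8 (0.18) changed sign under the housekeeping shift. CDH16 and TPM1 changed sign with the mean over their probesets (-3.06 and 0.86) and, in an alternative chosen after seeing the data, with the probeset brightest in heart and kidney (-5.32 and 4.98). Calls of 12 named genes were lost when 1 array was left out, namely ATP5MC3, CD5, COL5A2, CPT1A, DLAT, ECHS1, EMCN, GLRX2, GPT, GPX1, NPHS1 and SLC2A4.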

Other observations

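The genes with the largest SD between hearts, chosen after their values were seen, included products of the liver. ALB, albumin, stood at 7.91, 10.81, 4.15 and 4.19 on hearts 1 to 4. AHSG, fetuin, stood at 5.30, 9.43, 3.98 and 3.73, the fibrinogen chain FGB at 5.42, 8.04, 3.75 and 3.80, and RBP4, the retinol carrier, at 8.94, 9.60, 5.20 and 5.97. Heart 2 was highest in all 4 of these genes and heart 1 next. PCK1, HPD and MYL4 were also higher in these hearts, and the source was not tested.

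Of 944 genes with at least 2 called probesets, 11 had probesets called in opposite directions, which were CHPT1, DNAJB6, EDEM2, ENSA, FLOT1, FOXRED1, IDH3B, PLIN2, RABGAP1L, TMEM59 and TPM1. PLIN2, a coat protein of lipid droplets, had a probeset at 8.76 in heart and 7.16 in kidney and another at 5.52 and 10.21. FLOT1, a membrane raft protein, had one at 10.12 and 8.89 and another at 3.31 and 7.87. Which transcripts these probesets detect was not examined here.

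A further 1429 called probesets had no single symbol, 655 higher in heart and 774 in kidney. Over 10-fold differences were called in 143 and 163 of them, up to 9.67 in heart and -8.28 toward kidney.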
